A study of Xenopus laevis and Petromyzon marinus with 21 samples.

Results

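The change of the induction effect between stages 9 and 13 was measured in explants of the frog Xenopus laevis as a difference of differences: induced minus control caps at stage 13, less induced minus control caps at stage 9. The 12 libraries of 4 groups entered it, out of 21 in the series. All came from wild-type embryos whose animal caps (explants of blastula ectoderm, a pluripotent tissue) were cut out and cultured in saline. Control caps of stages 9 and 13 were left untreated and induced caps of the same stages came from embryos given mRNA for wnt8a, a Wnt ligand, and chordin, which binds BMP ligands and keeps them from their receptors, at the 2-cell stage; each group held 3 libraries. The labels call the control caps of stage 9 blastula cells and those of stage 13 epidermis. No group received either mRNA alone or an unrelated mRNA, so the effect of the injection and those of the separate factors cannot be told apart, and the labels do not say how many embryos or clutches a library holds.

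Caps left alone turn into epidermis under their own BMP signals, with goblet cells, multiciliated cells and ionocytes among the skin cells. Low BMP activity together with Wnt and FGF signals gives the neural plate border, which expresses zic, pax3, msx1 and tfap2a, and from it the neural crest, which expresses snai1, snai2, foxd3, sox8, sox9 and sox10. Several crest regulators, such as id3, tfap2a, myc and foxd3, are also known from the blastula. Maternal mRNA is still abundant at the blastula stage, when transcription of the embryo's own genome has only begun.

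The 12 libraries held 15596247 to 22087233 counts in genes. Among the 49282 genes counted, 22994 had enough counts to be tested, after 6 rows were set aside (wnt8a, chrd and hbg1.L, of which the first 2 stand for the injected mRNAs). Most genes of this frog exist as an L and an S copy on related chromosomes, and each copy was tested as a gene. Levels below are CPM, counts scaled to a common library size, on effective library sizes, given for libraries a, b and c in that order, differences are log2 fold changes with their standard error (SE), and a call is an adjusted p under 0.05 from edgeR's quasi-likelihood test (Benjamini-Hochberg over all genes). Induced library c of stage 13 stood apart from its sisters: its summed level of 54 multiciliated cell genes was 846.5 CPM, against 433.4 and 464.4 in libraries a and b and 3122 to 4666 in the controls. Induced library a of stage 9 was the lowest of its group for Wnt genes. Its summed level of 6 early dorsal Wnt genes was 99.53 CPM, against 340.6 and 265.8 in libraries b and c. For Wnt feedback and target genes the sum was 1234 CPM, against 1880 and 1856. Summed markers of mesoderm and muscle ran from 115.4 to 215.9 CPM over all 12 libraries, with the ranges of the 4 groups overlapping.

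The response to wnt8a and chordin was small at stage 9 and broad at stage 13. At stage 9, 85 genes differed between induced and control caps (0.37% of those tested), 70 higher (0.304%) and 15 lower (0.0652%). An unadjusted p under 0.05 was found for 985 genes, fewer than that threshold alone would give if no gene differed. With the letter as a block within each stage, 174 genes were called higher and 32 lower at stage 9. At stage 13, 10221 genes differed (44.5%), 4893 higher (21.3%) and 5328 lower (23.2%). The change between the stages itself was called for 5964 genes (25.9%). It was positive for 2682 (11.7%), whose difference moved toward higher levels in induced caps, and negative for 3282 (14.3%). The balance of directions depended on the scaling: with library totals in place of TMM factors 3310 were positive and 2983 negative. Without the library letter as a block the counts were 1787 and 2402. With 1 library left out, the positive calls ran from 1705 (without control library a of stage 9) and 1776 (without induced library c of stage 9) to 2551, and the negative calls from 2522 to 3283.

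Nearly all of the called changes were responses gained by stage 13. In 5829 of the 5964 genes (97.7%) the effect was called at stage 13 only, with 2615 gained toward higher and 3214 toward lower levels (3211 and 2915 with library totals). The median effect of the 2615 genes was -0.04 at stage 9 and 1.41 at stage 13, and that of the 3214 genes 0.04 and -1.9. A stage 9 effect without a call need not be absent. The fitted one was under 1.5-fold in 5144 of the 5829. The class itself asks for no call at stage 9, which favours small fitted effects there, so that count describes the class and does not show absence. With 85 genes called at stage 9, few changes could be lost, reversed, strengthened or weakened. Responses that were lost, called at stage 9 only, made up 15 genes, and 11 genes had called effects of opposite sign. Another 16 were strengthened, with the same sign and a larger effect at stage 13, 6 were weakened, and 87 had neither effect called. These small classes rest on the 85 calls at stage 9, and those depended on single libraries of that stage. Higher calls at stage 9 were 44, 25 and 27 without control libraries a, b and c and 120, 23 and 35 without induced libraries a, b and c of stage 9. Lower calls were 42 without induced library a of stage 9, the lowest of its group for Wnt genes. The lost class ran from 6 genes (without induced library b of stage 9) to 33 (without induced library a of stage 9), and the reversed class from 1 to 28 without the same libraries.

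**Figure D1:**
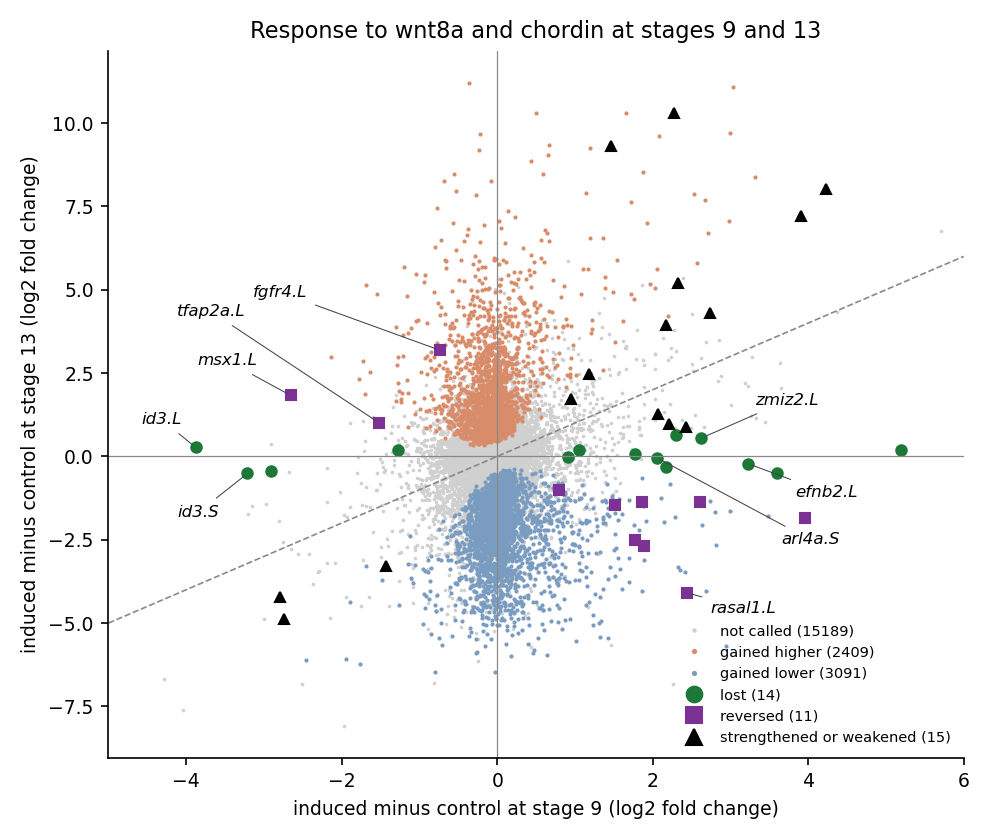
Each point is 1 tested gene with more than 3 counts in every group, placed by its log2 fold change of induced against control caps at stage 9 (x axis) and at stage 13 (y axis); the dashed line marks equal effects. Most called genes lie on a vertical band around 0 on the x axis, the gained responses, while the lost genes (circles), among them id3.L at -3.88 and 0.27, lie along the horizontal line and the reversed genes (squares) in the upper left and lower right.

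A gained response could come from a move in either kind of cap, and both occurred. Between stages 9 and 13, 76.6% of the tested genes changed in control caps (37.5% rose and 39.1% fell) and 75.9% in induced caps (37.1% rose and 38.9% fell). In numbers, 8612 rose and 9000 fell in control caps and 8524 and 8939 in induced caps, but with library totals 6000 rose and 12472 fell in control caps and 6105 and 11879 in induced caps. Among the 2615 genes gained toward higher levels, 611 (23.4%) fell in both kinds of cap, 603 (23.1%) rose in induced caps with no call in controls, and 549 (21%) rose in both. In 535 (20.5%) the control level fell with no call in induced caps, and in 309 (11.8%) it fell while the induced level rose. Among the 3214 genes gained toward lower levels, the control level rose in 2061 (64.1%): 937 (29.2%) rose in induced caps as well, 764 (23.8%) had no call there and 360 (11.2%) fell there. A further 633 (19.7%) fell in both and 511 (15.9%) fell in induced caps alone. These counts use the same libraries as the change itself and describe it. CPM are relative to the library, and scaling by library totals in place of TMM lowered the median change with time by 0.799 in control and by 0.698 in induced caps and raised the median change of the induction effect by 0.101. With library totals 1252 of the genes gained toward higher levels (39%) fell in both kinds of cap, and of those gained toward lower levels 850 (29.2%) fell in both and 574 (19.7%) rose in both, so the order of these classes depends on the scaling.

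**Figure D2:**
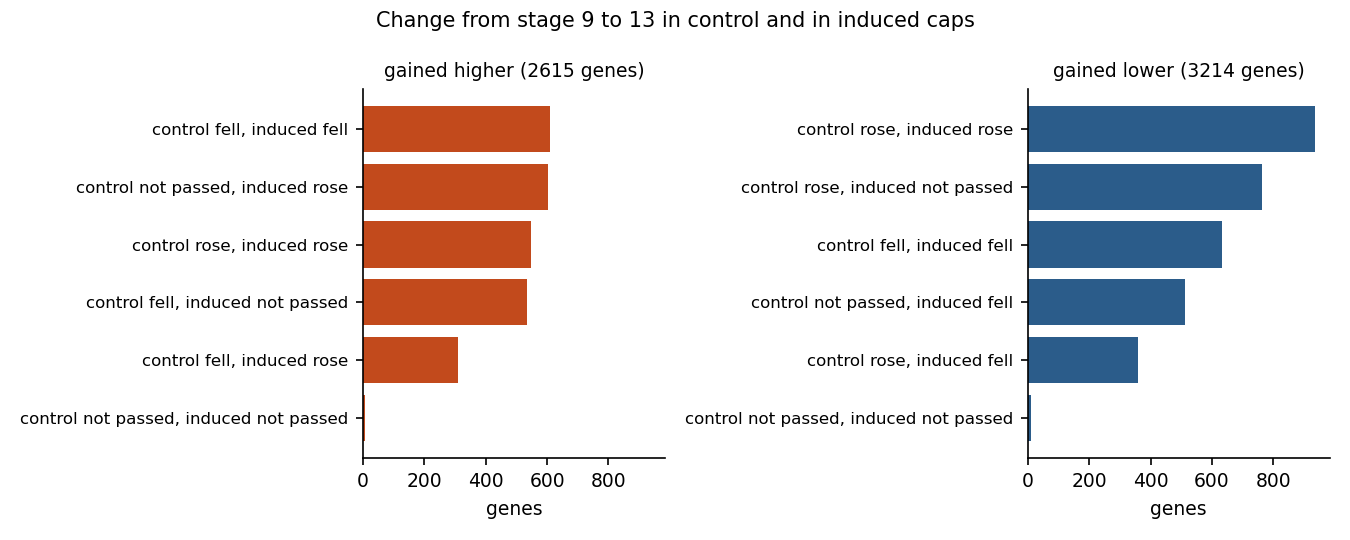
Bars count the genes gained toward higher levels (left) and toward lower levels (right) by the call of their change from stage 9 to stage 13 in control and in induced caps. The longest bars are 611 genes that fell in both kinds of cap on the left and 937 that rose in both on the right; with library totals in place of TMM factors the longest bar on the right would be the 850 genes that fell in both.

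The gained responses with the lowest p toward higher levels were of both kinds. zic2, which encodes a zinc finger factor of the neural plate and its border, was held at stage 9 in every library: zic2.S stood at 101, 67.4 and 91.8 CPM in control caps and at 95.9, 58.4 and 78.4 in induced caps. By stage 13 it was at 3.02, 1.65 and 2.58 CPM in control caps and at 281, 267 and 339.7 in induced caps. The groups thus overlapped at stage 9 and lay far apart at stage 13, and the change of zic2.S was 7.12 ± 0.23 (SE, adjusted p = 2.5e-07). The other copy, zic2.L, went from 42.2 to 96.8 CPM over the 6 libraries of stage 9 to at most 0.123 CPM in control and at least 158 in induced caps, a change of 11.57 ± 0.42. The same course, present in all blastula caps and then low only in controls, was seen for plekhg4.S, a guanine nucleotide exchange factor gene (36.4 and 39.8 CPM as means at stage 9, 0.744 and 123 at stage 13; change 7.23 ± 0.27), and for kirrel2.S, a gene of an immunoglobulin-type adhesion protein (change 6.87 ± 0.33).

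The Wnt receptor gene fzd7 followed that course as well. fzd7.L was at 209, 205.5 and 242 CPM in control and at 222, 145 and 226 in induced caps of stage 9. At stage 13 control caps held 10.6, 7.34 and 11.4 CPM and induced caps 379.6, 186 and 387, so the change was 5.18 ± 0.25 (adjusted p = 1.2e-06). For mex3b.L, which encodes an RNA-binding protein, levels fell in both kinds of cap but less in induced ones: the means went from 142 to 3.49 CPM in control and from 159.8 to 74.8 in induced caps (change 4.26 ± 0.20). The Wnt nuclear effector gene tcf7.S stood at 28.1 to 32.9 CPM in all stage 9 caps, at 3.22 to 4.32 in control and at 99.9 to 134.8 in induced caps of stage 13 (change 4.93 ± 0.22).

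snai1, which encodes the repressor that drives crest cells out of the epithelium, took the other course. snai1.L lay between 1.2 and 2.23 CPM in all 6 libraries of stage 9 and at 0.802, 1.65 and 1.0 CPM in control caps of stage 13. Induced caps of stage 13 held 347, 369 and 331 CPM, above every other library. The change was 8.36 ± 0.34 (adjusted p = 5.2e-07), and that of snai1.S, which was already at 17.6 to 47.2 CPM in the stage 13 controls, 3.19 ± 0.53 (adjusted p = 0.0016).

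**Figure D3:**
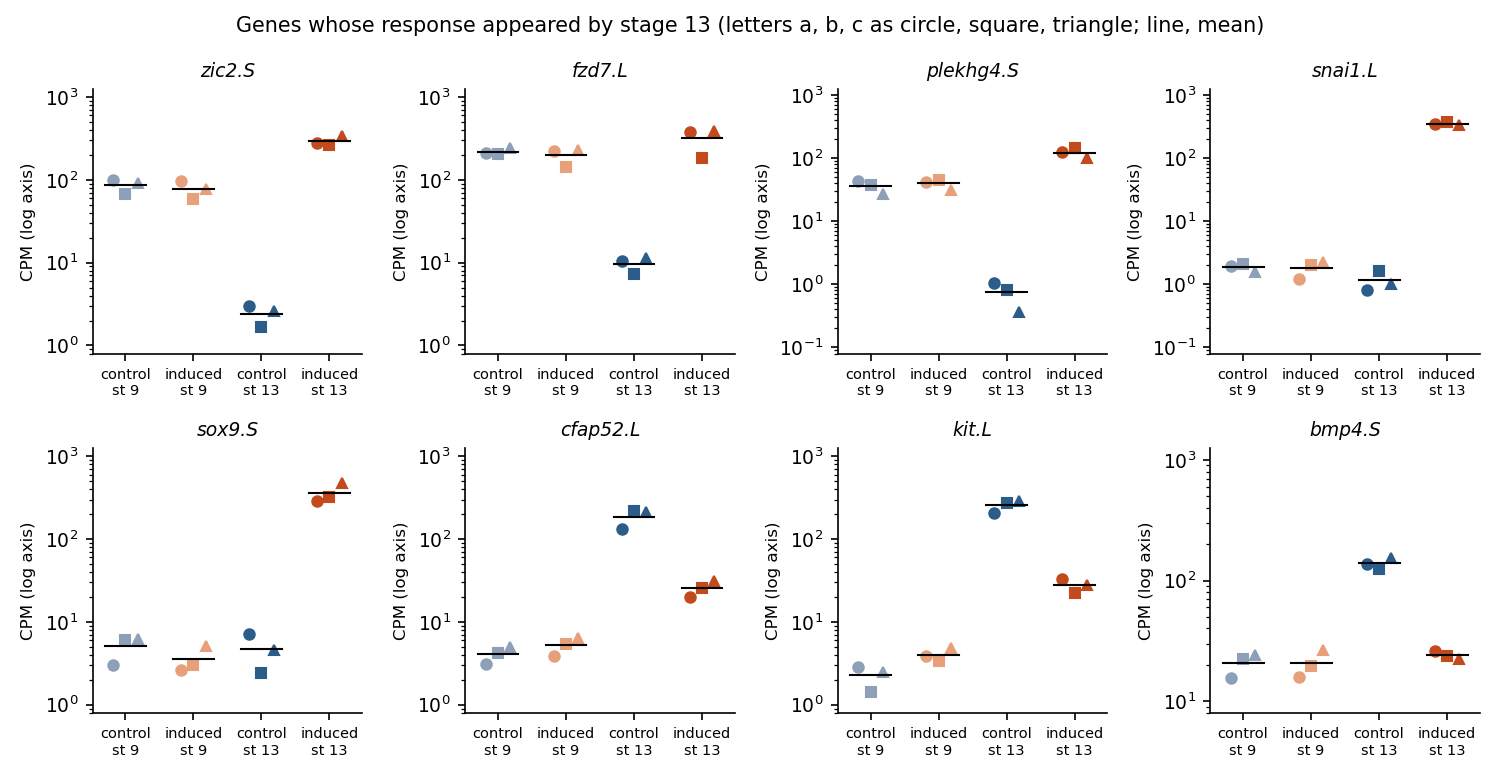
Level of 8 genes in each library (CPM, log axis that differs between panels), by group; circles, squares and triangles are libraries a, b and c and the line is the mean of 3. zic2.S, fzd7.L and plekhg4.S fell in control caps, snai1.L and sox9.S rose in induced caps, and cfap52.L, kit.L and bmp4.S rose in control caps, to at least 133 CPM for cfap52.L against at most 31.6 in induced caps.

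Crest and border genes were mostly gained toward higher levels. Of 51 tested crest genes (64 are in the table), 29 changed positively and 4 negatively, with 18 not passed. The median change was 4.03 against 0.01 over all genes tested, where 11.7% changed positively. Of 33 tested border genes 24 changed positively and none negatively, with a median of 3.36. Genes that entered the test through their level in 1 group alone had to differ between groups, so these counts describe the lists and do not support them. Without induced library c of stage 13 the counts were 28 and 4 for crest and 24 and 0 for border genes.

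Among the crest genes, sox9.S, which encodes a SoxE factor needed for crest formation, stood at 2.64 to 6.19 CPM in all stage 9 caps, at 7.22, 2.39 and 4.59 in control and at 292, 319 and 471 in induced caps of stage 13. Its change was 6.72 ± 0.54 (adjusted p = 3.6e-05), that of sox8.L 4.58 ± 0.48 and that of tfap2e.S 6.75 ± 0.43. foxd3.L, a repressor gene of blastula and crest, was below 1.7 CPM in every library of stage 9 and below 0.22 in control caps of stage 13, and reached 36.4, 40.3 and 105 CPM in induced caps, with library c at the top. Its change was 8.42 ± 0.55. For snai2.L, 2 counts fell in the 3 induced and 3 in the 3 control libraries of stage 9, and it reached 336, 570 and 460.2 CPM in induced caps of stage 13, against 2.37 to 6.35 in controls. Its change was called (adjusted p = 0.011), but not without control library a of stage 9 (adjusted p = 0.16).

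Where a group held almost no counts, the test had little to work with. sox10.S, a later crest factor, had no count in the 3 other groups and 123 in induced caps of stage 13, at least 37.4-fold above the floor of 3 counts that was taken for the controls. Its change was not called (adjusted p = 1). pdgfra.S, a growth factor receptor gene of migrating crest, had no count in stage 13 controls and 2321 in induced caps, at least 706-fold higher, and its change was called (adjusted p = 0.0003).

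The 4 crest list members with negative changes were ets1.L, both copies of kit and sema3f.L. ets1.L, a transcription factor gene, was at 53.5 to 73.8 CPM in all stage 9 caps and then at 45.1, 58.4 and 51.9 in control but 9.54, 12.35 and 16.5 in induced caps, a change of -2.0 ± 0.30 (adjusted p = 0.00086). kit.L, which encodes a receptor tyrosine kinase of pigment cells, rose in control caps from 1.42 to 2.85 CPM to 208, 271 and 291, and reached 32.9, 22.5 and 28.2 in induced caps (change -4.05 ± 0.32, adjusted p = 3.4e-05). Stage 13 levels of both genes did not overlap between the groups.

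Of 16 tested copies of regulators shared by blastula and crest, 11 changed positively (snai1, foxd3, id3, tfap2a and myc, both copies, and mycn.L). Another 1 changed negatively (ets1.L) and 4 did not pass (sox5 both copies, ets1.S and mycn.S). Positive and negative shares were 68.8% and 6.25%, against 11.7% and 14.3% of all genes tested. At stage 9 the summed level of these 16 was lower in induced caps, at 239.7 to 319 CPM against 492 to 642 in controls, and at stage 13 it was higher, at 3129 to 3209 against 1559 to 1622. The stage 9 difference was carried by the 3 members called lower there, id3.L, id3.S and tfap2a.L, which made up 284 of 314.1 CPM between the group means. A further 1 member was called higher. Over all genes tested, 0.0652% were lower and 0.304% higher at stage 9. myc.S rose in both kinds of cap, from 17.2 to 41.7 CPM over the stage 9 libraries to 49.4, 85.5 and 89.6 in control and 272, 273.8 and 274 in induced caps (change 2.22 ± 0.37, adjusted p = 0.0016).

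The FGF, Wnt and Notch lists each held more positive than negative changes. Positive shares were 57.1%, 31% and 41.9% in that order, against 11.7% of all genes tested. Negative shares were 0%, 9.52% and 16.1%, against 14.3%. Of 28 tested genes of FGF signalling and its feedback, 16 changed positively and none negatively, with a median of 1.66, or 1.93 with genes of empty groups at their bound. The 16 were 10 without control library b of stage 13, without induced library b of stage 13 or without induced library b of stage 9. They included fgfr4 and fgfr1 (both copies), the feedback inhibitors spry2, spry4 and il17rd (both copies each) and the ligand gene fgf8.L. il17rd.S fell in all caps but less in induced ones, from 93.9 to 149.7 CPM to 2.15 to 6.05 in control, and from 54.2 to 153 to at most 23.8 in induced caps (change 2.85 ± 0.34, adjusted p = 0.00026).

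Of 42 tested Wnt feedback and target genes, 13 changed positively, among them axin2, nkd1, sp5l and fzd7 (both copies each), 4 negatively and 25 did not pass. The 4 were 1 without library b of the stage 9 controls or of either stage 13 group, and without the block. Of the 42, 31 were called higher at stage 13 and 6 at stage 9. Over all genes tested, 21.3% were higher at stage 13 and only 0.304% at stage 9. Of 31 tested Notch and proneural genes 13 changed positively, with both copies of notch1, lfng and neurog2 among them, and 5 negatively (8 by DESeq2's Wald test, and 2 with the filters of 5 CPM or of more than 3 counts in each group). In the Notch list the ligand gene dll1.S, which nascent multiciliated cells and ionocytes express, reached 195, 145 and 172 CPM in control and 9.33, 15.0 and 25.9 in induced caps of stage 13 (change -4.76 ± 0.71, adjusted p = 0.0009). The ligand gene jag1.L, by contrast, was at 2.15 to 2.65 CPM in stage 13 controls and at 49.5, 52.5 and 42.9 in induced caps. In all stage 9 caps it was at 2.68 to 7.75 CPM (change 4.42 ± 0.49, adjusted p = 0.00018). The change of jag1.S was not called, and its stage 13 groups overlapped.

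Of 42 tested neural plate genes 22 changed positively and 2 negatively (1 without induced library b of stage 9). Positive and negative shares were 52.4% and 4.76%, against 11.7% and 14.3% of all genes tested. sox11.L, an early neural factor gene, fell in control caps from 36.1 to 44.3 CPM to 5.2 to 9.57 and rose in induced caps from 52.9 to 68.8 to 161, 172.5 and 196.5 (change 4.0 ± 0.26, adjusted p = 9.9e-06). olig3.S, a dorsal neural tube factor gene, was counted 2 times in all stage 13 controls and 6187 times in induced caps. Of 17 tested placode genes 6 changed positively (35.3%) and 1 negatively (5.88%), the latter lost without control library b of stage 13. Of 26 tested organiser genes 8 changed positively (30.8%), with nog, lhx1 and pkdcc.2 in both copies, and 2 negatively (7.69%). The 8 were 4 without control library b of stage 13 and 5 without induced library b of either stage. A group with at most 3 counts was present for 13 of the 26. The filter of more than 3 counts in each group left 2 positive and 2 negative calls.

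Negative changes outnumbered positive ones in all 4 lists of skin cell types, and made up most of the multiciliated cell list alone. Of 54 tested multiciliated cell genes, 36 changed negatively, against 14.3% of all genes tested, 2 positively (both copies of e2f4, a cell cycle factor gene) and 16 did not pass; the median was -3.43. The 2 positive calls were 0 without control library c or induced libraries b or c of stage 9, and 1 without control libraries a or b of stage 9 or a or b of stage 13, or induced libraries b or c of stage 13. The list's summed level was 627 to 664 CPM in control and 619 to 645.6 in induced caps of stage 9, and at stage 13 it was 3122, 4199 and 4666 in control and 433, 464 and 846.5 in induced caps. Fewer cells of a type and less RNA per cell cannot be told apart in such bulk samples. cfap52.L, a gene of the ciliary axoneme and the negative change with the lowest p, went from 3.08, 4.21 and 4.93 CPM to 133, 217 and 209.6 in control caps and from 3.84, 5.45 and 6.48 to 19.9, 25.7 and 31.6 in induced caps. Its levels rose in both kinds of cap and did not overlap at stage 13 (change -3.22 ± 0.19, adjusted p = 5e-06). Library c was the highest of the induced ones, and without it 40 of the list changed negatively.

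Of 35 tested ionocyte genes, 16 changed negatively and 1 positively. These were 45.7% and 2.86%, against 14.3% and 11.7% of all genes tested. The 16 were 9 without induced library b of stage 9. The list's summed level was 697 to 1023 CPM in control caps of stage 9 and 1412 to 2178 at stage 13, against 431.6 to 501 in induced caps of stage 13. The positive call was lost without any control library of stage 13, any induced library of stage 9, control library c of stage 9 or induced library a of stage 13. tfcp2l1.S, a factor gene of ionocytes and other epithelia, was at 13.8 to 39.2 CPM in all stage 9 caps and at 218, 246 and 164 in control but 15.5, 11.4 and 22.9 in induced caps of stage 13 (change -3.38 ± 0.46, adjusted p = 0.00057). slc4a1.S, which encodes an anion exchanger, changed by -4.25 ± 0.48. Of 10 tested goblet and secretory genes 3 changed negatively (30%) and 1 positively (10%), against the same 14.3% and 11.7%. The 3 were 0 without control library b or induced library b of stage 9 and with no filter, and 1 without control libraries a or c of stage 9 or library a of either stage 13 group. The positive call was lost without induced libraries b or c of stage 9. The 3 were 5 by DESeq2's Wald test and without induced library c of stage 13, whose summed level of the list was 1933 CPM against 778.7 and 357 in its sisters and 8876 to 10420 in controls. The part of that library's skin cell transcripts in the other results was not tested.

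Of 68 tested epidermal genes 31 changed negatively, 8 positively and 29 did not pass. The negative share was 45.6%, against 14.3% of all genes tested. The positive share was 11.8%, about that of all genes tested (11.7%). The 8 were 5 without control libraries a or c or induced library b of stage 9 or induced library b of stage 13. Their summed level at stage 9 was 5052 to 5983 CPM in control and 4913 to 6445 in induced caps, and at stage 13 it was 104100 to 116200 in control and 37330 to 38890 in induced caps. krt8.1.L, a keratin gene, rose to 3504, 2752 and 3372 CPM in control and 1200, 1092 and 1292 in induced caps, from 255 to 324 in all stage 9 caps (change -1.53 ± 0.14, adjusted p = 7.1e-05). The change of krt8.1.S was not called, and its stage 13 groups overlapped. klf5.S, an epithelial factor gene, changed by -1.75 ± 0.17. The 8 with positive changes held both copies of tfap2a, grhl2.L, epcam.L and krt18.1.S, which reached 985, 1281 and 808 CPM in induced caps against 97.2, 30.0 and 76.5 in controls of stage 13 (change 3.73 ± 0.58, adjusted p = 0.0011), while krt18.1.L changed by -1.70 ± 0.30.

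The naming rule also chose 5 genes gained toward lower levels, among those of lowest p, that are in no list. calr.S, which encodes the endoplasmic reticulum chaperone calreticulin, rose from 110 to 157 CPM in all stage 9 caps to 3663, 2849 and 3119 in control and 1027, 774 and 890.3 in induced caps (change -1.82 ± 0.14, adjusted p = 2.6e-05). jup.L, the gene of the junction protein plakoglobin, rose from 155 to 241 CPM to 583, 703 and 797 in controls and was at 118, 148 and 192 in induced caps (change -2.36 ± 0.18). niban2.S moved apart in both directions, from 37.2 to 45.7 CPM at stage 9 to 138, 165 and 125.5 in control and 4.39, 5.21 and 9.24 in induced caps (change -4.42 ± 0.33). tax1bp3.L changed by -2.45 ± 0.18 and the kinase gene hunk.L by -2.67 ± 0.20. The other copies, tax1bp3.S and hunk.S, overlapped between control and induced caps at stage 13.

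BMP targets and feedback genes were called mainly at stage 13. Of 47 tested, 14 changed negatively, 6 positively and 27 did not pass, with a median of -1.3. Negative and positive shares were 29.8% and 12.8%, against 14.3% and 11.7% of all genes tested, so the positive share was near that of all genes. Without induced library c of stage 13 the counts were 19 and 7. At stage 9, 6 of the 47 were called lower in induced caps (id3.L, id3.S, msx1.L, dlx5.S, dlx3.S and smad7.L) and 1 higher (msx2.S). Over all genes tested, only 0.0652% were lower and 0.304% higher at that stage. The list's summed level at stage 9 was 1096 to 1610 CPM in control and 769 to 1044 in induced caps. The calls of dlx3.S, smad7.L and msx2.S at stage 9 were lost without any 1 of 4, 5 and 9 libraries (adjusted p up to 0.24, 0.22 and 0.32). At stage 13, 32 were called lower and 7 higher, where 23.2% of all genes tested were lower and 21.3% higher. bmp4.S, a BMP ligand gene, was at 15.5 to 26.8 CPM in all stage 9 caps and at 138, 125 and 155 in control but 26.3, 23.7 and 22.1 in induced caps of stage 13 (change -2.51 ± 0.27, adjusted p = 0.00017). bambi.S, which encodes a pseudoreceptor made in response to BMP, was at 24.4 to 31.3 CPM in control and 12.8 to 18.5 in induced caps of stage 9, and at 310.4 to 332 and 14.9 to 39.1 at stage 13 (change -2.88 ± 0.35, adjusted p = 0.00032). The stage 9 effect of bambi.S was not called (adjusted p = 0.45).

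Early responses that were lost held id3, the BMP target whose product blocks differentiation factors and which is needed in crest. id3.L was at 60.6, 146 and 137 CPM in control caps of stage 9 and at 2.1, 13.5 and 9.02 in induced caps. At stage 13 it was at 463, 447.5 and 432 in control and at 517, 636 and 510 in induced caps. The effect was -3.88 at stage 9 (adjusted p = 0.0029), 0.27 at stage 13 (adjusted p = 0.61), and the change was 4.15 ± 0.57 (adjusted p = 0.00058). Stage 9 levels did not overlap between control and induced caps, and the stage 9 call held without any single library (adjusted p up to 0.045), but not with no filter on low counts (adjusted p = 0.074). id3.S was also called lower at stage 9 only, with effects of -3.21 and -0.51 and a change of 2.70 ± 0.51. At stage 13 the groups did not overlap for either copy, though neither effect was called. There id3.L was higher in induced caps and id3.S lower (means 334.5 against 462 CPM). The stage 9 call of id3.S was lost without induced library c of stage 9 and with no filter (adjusted p = 0.054 for the former).

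The other lost responses toward lower levels were stard13.S and dlx5.S, a homeobox gene of epidermis and placodes. stard13.S was at 15.96, 25.3 and 22.4 CPM in control and 2.23, 1.93 and 4.36 in induced caps of stage 9 and at 101 to 141 and 73.3 to 106 at stage 13, where the groups overlapped (change 2.48 ± 0.42, adjusted p = 0.0017). dlx5.S was at 10.8 to 15.8 CPM in control and 4.12 to 6.31 in induced caps of stage 9, and at 71.7 to 127 and 94.0 to 134 at stage 13 (change 1.45 ± 0.28, adjusted p = 0.0036). The stage 9 call of dlx5.S did not hold without libraries b or c of either stage 9 group (adjusted p 0.12 to 0.21).

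Of the 11 lost responses toward higher levels, 7 had a mean in induced caps of stage 9 below both means of stage 13, 3 above both and 1 between them. The 3 above both, given after their values were seen, were mcl1.S (118 CPM against 41.2 in control and 40.4 in induced caps of stage 13), pcdh9.S (9.47 against 0.415 and 0.3) and cpe.L (4.24 against 1.34 and 1.33). arl4a.S, a small GTPase gene, was at 9.69, 6.94 and 7.22 CPM in control and 44.2, 27.3 and 28.4 in induced caps of stage 9, and at 82.8 to 86.2 and 67.5 to 98.4 at stage 13. Its groups were apart at stage 9 and overlapped at stage 13 (effects 2.06 and -0.04, change -2.10 ± 0.30, adjusted p = 0.00068). zmiz2.L, which encodes a coregulator of transcription, was at 13.2, 19.5 and 24.7 CPM in control and 88.1, 98.8 and 168 in induced caps of stage 9, and at 186 to 195 and 263 to 301 at stage 13. Its stage 13 groups did not overlap and that effect just missed the call (0.54, adjusted p = 0.055) (change -2.08 ± 0.30, adjusted p = 0.00074).

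efnb2.L, which encodes an ephrin ligand that keeps crest streams apart, was at 0.577, 0.244 and 1.96 CPM in control and 4.04, 8.96 and 13.3 in induced caps of stage 9, and at 160 to 167 and 92.1 to 190.5 at stage 13 (change -3.45 ± 0.57, adjusted p = 0.0016). Its stage 9 call was lost without control library a or induced libraries b or c of that stage (adjusted p 0.071 to 0.091). efnb2.S was higher in induced caps at both stages (1.37 and 1.55), with no called change. pm20d1.L, at most 1.93 CPM in any stage 9 library, is in the class with a stage 9 adjusted p of 0.046, which passed 0.05 without any 1 of 10 of the 12 libraries, the exceptions being control and induced library a of stage 9 (up to 0.38).

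**Figure D4:**
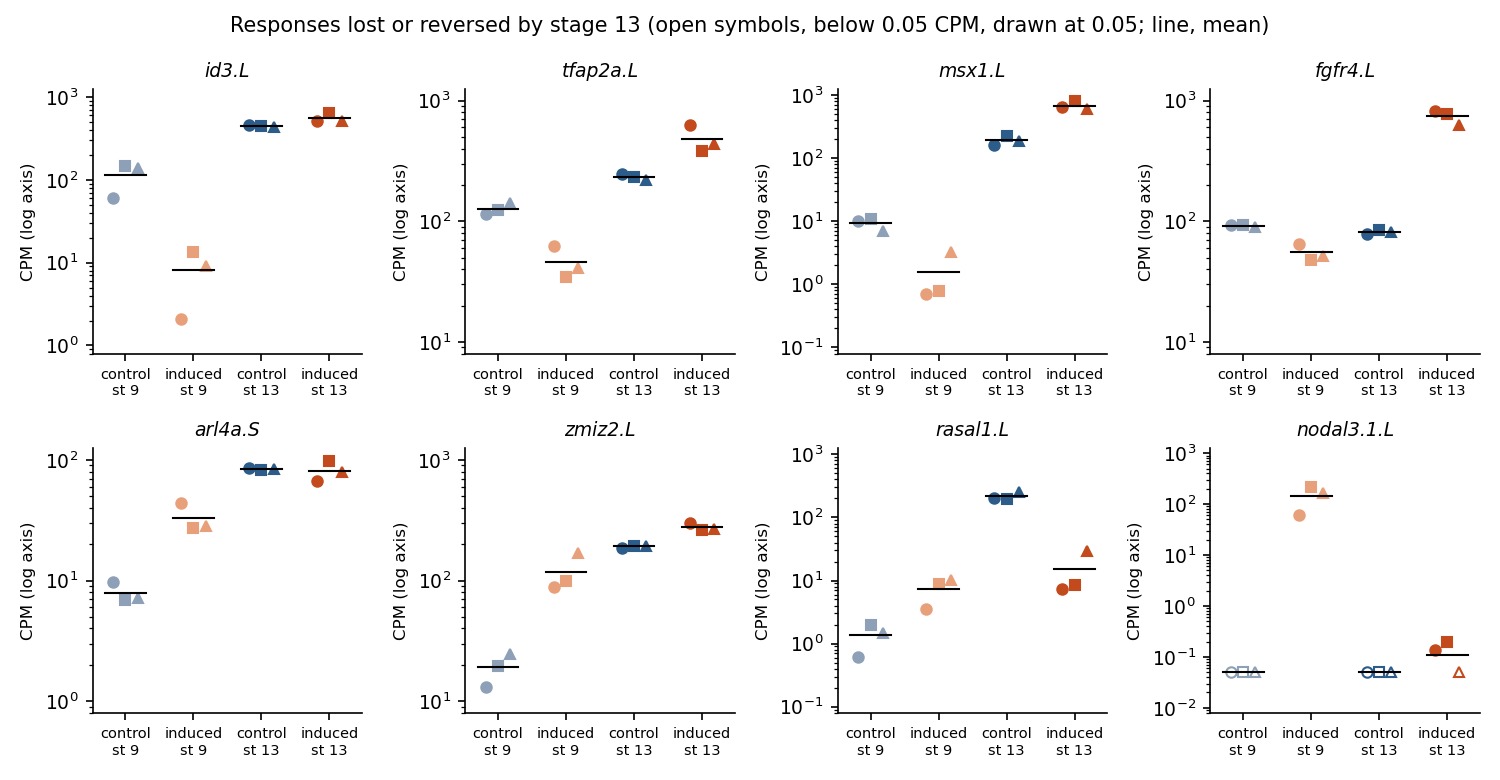
Level of 8 genes in each library (CPM, log axis that differs between panels), by group; circles, squares and triangles are libraries a, b and c, open symbols lie below 0.05 CPM and are drawn there, and the line is the mean of 3. id3.L, arl4a.S and zmiz2.L differed at stage 9 more than at stage 13, tfap2a.L, msx1.L and fgfr4.L were lower in induced caps at stage 9 and higher at stage 13, rasal1.L the reverse, and nodal3.1.L was high only in induced caps of stage 9, at 61.5 to 213 CPM.

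The 3 genes reversed from lower to higher were border or FGF genes. tfap2a.L, which encodes a factor of both epidermis and crest, was at 116, 124 and 142 CPM in control and 61.9, 34.6 and 40.6 in induced caps of stage 9, and at 247.5, 233 and 221 in control and 624, 382 and 434 in induced caps of stage 13. The groups did not overlap at either stage and the order was opposite. The effects were -1.52 (adjusted p = 0.0047) and 1.01 (adjusted p = 0.0012), with a change of 2.53 ± 0.26 (adjusted p = 0.00014). The stage 9 call was lost without induced library b of stage 9 (adjusted p = 0.054). tfap2a.S had effects of -1.07, which was not called (adjusted p = 0.055), and 1.62, and a change of 2.69 ± 0.28.

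msx1.L, a homeobox gene that responds to BMP at the border, was at 10.2, 10.8 and 6.98 CPM in control and 0.701, 0.794 and 3.24 in induced caps of stage 9, and at 165, 225 and 187 in control and 639, 799.6 and 598.5 in induced caps of stage 13. The groups were apart at both stages, with effects of -2.66 and 1.83 and a change of 4.48 ± 0.58 (adjusted p = 0.00045). Its stage 9 call (adjusted p = 0.038) was lost without any 1 of 10 libraries, all but induced library c of each stage (adjusted p up to 0.25), and without the block (0.051). fgfr4.L, an FGF receptor gene, was at 92.8, 92.8 and 89.6 CPM in control and 65.4, 48.1 and 51.8 in induced caps of stage 9, and at 77.8, 84.1 and 80.9 in control and 817, 783 and 626 in induced caps of stage 13. The effects were -0.74 and 3.19 and the change 3.93 ± 0.19 (adjusted p = 1.2e-06). Its stage 9 call (adjusted p = 0.046) was lost without any 1 of 9 libraries, all but control library a of stage 13, induced library a of stage 9 and induced library c of stage 13 (up to 0.35).

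Reversal from higher to lower was called for 8 genes, 3 of which have a symbol and reached a mean of 10 CPM. rasal1.L, a gene of a Ras GTPase-activating protein, was at 0.615, 1.96 and 1.49 CPM in control and 3.55, 8.74 and 10.03 in induced caps of stage 9, and at 206, 196 and 258 in control and 7.45, 8.55 and 29.7 in induced caps of stage 13. The change was -6.53 ± 0.58 (adjusted p = 6.5e-05), with induced library c the highest of its group at stage 13. clptm1.L, which encodes a membrane protein, was at 44.6 to 46.5 CPM in control and 63.0 to 88.7 in induced caps of stage 9, and at 329 to 353 and 152 to 187 at stage 13 (change -1.81 ± 0.19). cpne3.L, a copine gene, went from effects of 1.86 to -1.36 (change -3.22 ± 0.39). The stage 9 calls were weak. The call was lost without any 1 of 9 libraries for rasal1.L (all but control library a of stage 13 and induced libraries b and c of stage 13), of 7 for clptm1.L (all of stage 9 but induced library a, and control libraries b and c of stage 13) and of 4 for cpne3.L (control libraries a and c and induced libraries b and c of stage 9), with adjusted p up to 0.35, 0.28 and 0.14.

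Strengthened responses included zic1.L, a zinc finger factor gene of the border. At stage 9 it was at 24.01 to 35.9 CPM in control and 66.8 to 119 in induced caps, and at stage 13 at 0.165 to 0.502 and 163 to 210, with a change of 7.84 ± 0.39. Its stage 9 call did not hold without libraries b or c of either stage 9 group (adjusted p 0.064 to 0.13) and without the block (0.066).

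egr4.L, an immediate early factor gene, was at 0.538 to 0.791 CPM in control and 1.4, 7.57 and 5.73 in induced caps of stage 9, and at most 0.123 in control and 35.0, 115 and 63.3 in induced caps of stage 13. Its stage 9 call (adjusted p = 0.027) was lost without library b of any group or without control or induced library c of stage 9 (up to 0.21). Toward lower levels, stard13.L was strengthened, from -1.43 to -3.29 (change -1.87 ± 0.32, adjusted p = 0.0018), whereas stard13.S lost its difference. The stage 9 call of stard13.L did not hold without libraries b or c of either stage 9 group (up to 0.18).

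Weakened responses were 6, and the changes of the 4 described here were not called in the fit without the block. nradd.S, a gene of a death domain receptor, had effects of 2.43 and 0.87 (change -1.56 ± 0.34, adjusted p = 0.0074; 0.18 without the block), while nradd.L grew from 2.17 to 3.95 (change 1.78 ± 0.33, adjusted p = 0.0031; also 0.18 without the block). cdx4.L, a caudal homeobox gene and Wnt target, was counted once in control and 376 times in induced caps of stage 9, and at stage 13 stood at 0.123, 6.35 and 2.44 CPM in control and 7.66, 37.2 and 13.6 in induced caps. The change was called (adjusted p = 0.021; 0.12 without the block), but not without library b of stage 9 controls or of either stage 13 group (up to 0.12). The changes of post5.S and dact4.L had adjusted p of 0.025 and 0.048, and 0.095 and 0.26 without the block. They were lost without any 1 of 5 and 9 libraries, which for post5.S were library b of each group and control library c of stage 13, and for dact4.L all but control library c and induced library c of stage 13 and induced library a of stage 9.

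The earliest Wnt response genes were present in induced caps at stage 9 and close to 0 at stage 13, without a called change of the effect. nodal3.1.L, a nodal-related gene switched on by maternal Wnt signals in the dorsal blastula, was at 61.5, 213 and 165 CPM in induced caps of stage 9, 10382 counts, with no count in controls, at least 3340-fold higher. At stage 13 it had 5 counts in induced caps and none in controls. nodal3.2.L had 4276 counts in induced and 1 in control caps of stage 9, and sia1.L, a homeobox gene of the dorsal blastula, 873 and none, the latter at 4.17, 23.8 and 7.29 CPM. At stage 13 the induced caps held 1 and 5 counts and the controls none. All 3 were called at stage 9 (adjusted p up to 0.0039, and for sia1.L 0.063 without induced library b of that stage). But with at most 1 count in the control group of either stage, the adjusted p of the change was 1. DESeq2's Wald test gave 0.01 for nodal3.1.L. hoxd1, a Wnt and retinoic acid target, differed at both stages instead, hoxd1.L at 3.05, 13.2 and 10.3 CPM in induced caps of stage 9 and 95.8, 150.5 and 72.0 at stage 13, against at most 2.89 in any control library, with no called change (adjusted p = 0.63). The stage 9 call of hoxd1.L (adjusted p = 0.012) did not hold without any 1 of the control libraries of stage 9, or without induced libraries b or c of that stage (up to 0.16).

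The L and S copies of a gene often differed in their calls. Both copies were tested for 5798 genes, and 2591 of these had at least 1 called copy. In 837 both copies changed in the same direction, in 56 in opposite directions, and in 1698 a single copy was called, of which 1286 had the same fitted sign in both. Opposite calls included nradd and clptm1, where clptm1.S changed by 0.89 ± 0.24 against -1.81 for clptm1.L, and krt18.1. The call of clptm1.S was lost without the block (adjusted p = 0.088) and without control library a or induced library c of stage 9 or library b of either stage 13 group (up to 0.1). The deposited table sets reads with more than 1 alignment apart from the gene counts, which leaves the levels of near-identical copies uncertain.

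Lists for other cell types and for the embryo's state had fewer calls or split ones, apart from the cell cycle list. There 30.6% of the tested members changed positively and 3.23% negatively, against 11.7% and 14.3% of all genes tested. Of 52 tested pluripotency genes 16 changed positively (30.8%) and 12 negatively (23.1%), both above the shares of all genes tested. In both copies lin28a, lin28b, sox11 and myc changed positively, and klf2, klf5 and tfcp2l1 negatively. Some of these also count in other lists: sox11 in neural plate, myc in crest, klf5 in epidermis and tfcp2l1 in ionocytes. lin28b.S, an RNA-binding protein gene, was at 20.7 to 29.9 CPM in all stage 9 caps and at 3.52, 4.04 and 6.09 in control and 12.54, 24.2 and 25.4 in induced caps of stage 13 (change 2.27 ± 0.42, adjusted p = 0.0029). Of 62 tested cell cycle genes 19 changed positively and 2 negatively, and 12 positively without control library a of stage 9, control library b of stage 13 or induced library c of stage 9. Its 2 negative calls were 0 without those same libraries, and 1 without any other library but a or c of the stage 13 controls and a of the stage 13 induced caps. The list's summed level was 12340 to 12950 CPM in all stage 9 caps, 6204 to 7060 in control and 9583 to 10380 in induced caps of stage 13. mcm5.L, a replication helicase gene, was at 121 to 162 CPM over all stage 9 caps and stage 13 controls. Induced caps of stage 13 held 356, 388 and 351 CPM (change 1.15 ± 0.15, adjusted p = 0.0004). The change of mcm5.S was not called, and its stage 13 groups overlapped.

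Of 31 tested mesoderm and muscle genes 6 changed positively and 4 negatively, and of 18 endoderm genes 1 and 5, of 6 blood genes 1 and 1, of 30 germ plasm and oocyte genes 2 and 2, and of 10 cement and hatching gland genes 2 and 1. Those shares were 19.4% and 12.9%, 5.56% and 27.8%, 16.7% and 16.7%, 6.67% and 6.67%, and 20% and 10%. Over all genes tested they were 11.7% and 14.3%. Without single libraries the mesoderm positives ran from 3 to 5, 3 without control library c or induced library b of stage 9, and the 4 negatives were 2 without control library b or induced library c of stage 9. The 5 endoderm negatives became 3 without control libraries b or c or induced libraries a or b of stage 9 or induced libraries a or b of stage 13. The positive endoderm call was lost without control library a of stage 9. The negative blood call became 2 without induced library b of either stage, and the positive germ plasm calls 1 without control library a or induced libraries b or c of stage 9. The negative gland call was lost without induced library b of stage 9 and became 2 without that of stage 13. Of 6 early dorsal Wnt genes 1 changed, bix1.1.L, negatively. Its groups overlapped at stage 9, and at stage 13 it had 46 counts in control and 1 in induced caps. It thus did not follow the course of nodal3.1.L and sia1.L. DESeq2's Wald test called 4 of the list negative, and the filters of 5 CPM and of more than 3 counts in each group left 0. Of 19 tested Hox genes, 17 of which had a group with at most 3 counts, 1 changed positively (hoxb2.S, with an adjusted p of 0.019, which was 1 without control library c of stage 9) and 2 negatively. The positive calls were 4 without induced library a of stage 13 and with no filter, 3 without control library b of stage 9, control library a of stage 13 or induced library a of stage 9, and 2 without control library a or induced library c of stage 9 or control library c of stage 13. Both directions were 0 with the filter of more than 3 counts in each group. Their summed level was 4.83 to 24.6 CPM in induced caps of stage 9 and 402 to 655 at stage 13, against 21.0 to 84.2 in stage 13 controls. Of 35 tested housekeeping genes 29 did not pass, 5 changed negatively, both copies of actg1 and of eef1a1o among them, and 1 positively. The negative share was 14.3%, the same as over all genes tested, and the positive share 2.86%. The positive call was lost without library b of any group or control library c of stage 9, and became 3 without induced library c of stage 13.

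**Figure D5:**
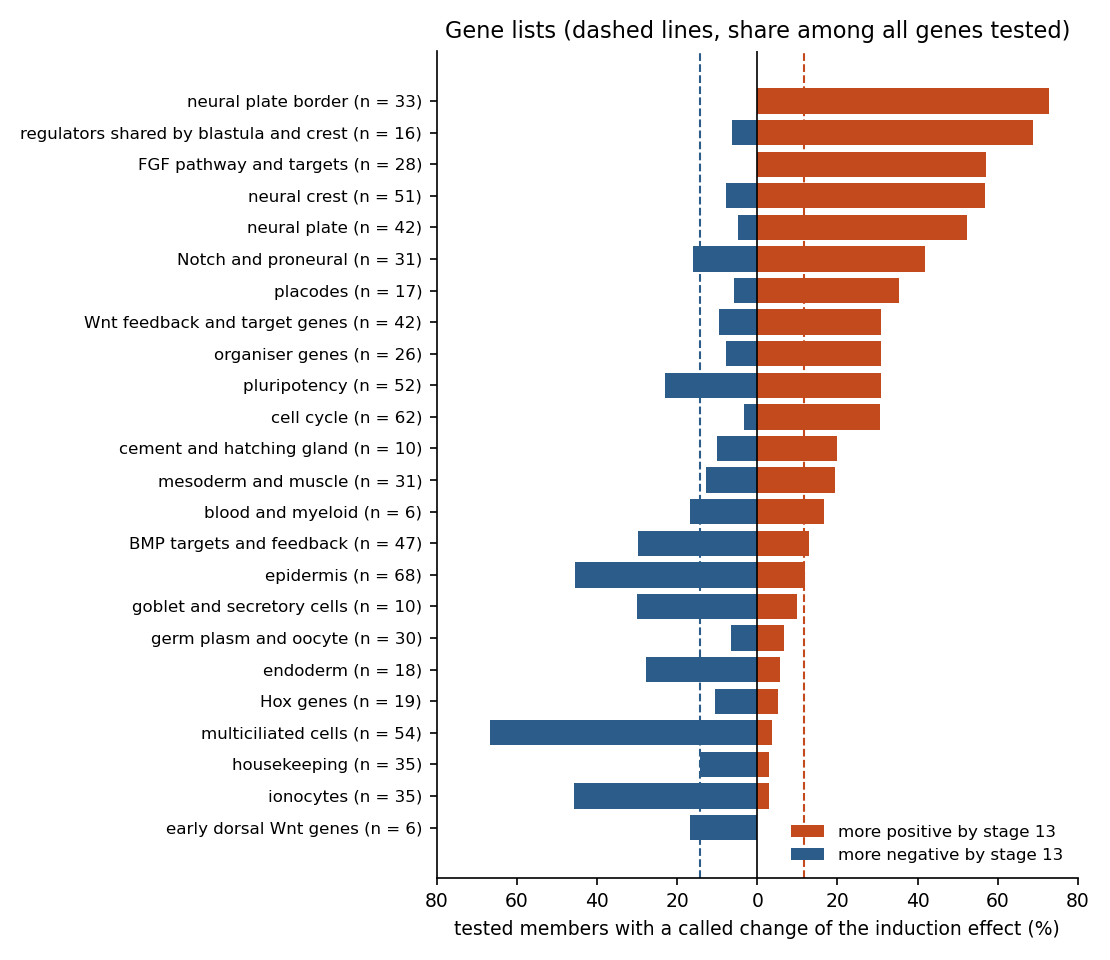
Share of the tested members of each gene list whose induction effect changed positively (right) or negatively (left) between stages 9 and 13, with the number tested in parentheses; dashed lines mark the shares among all genes tested, 11.7% and 14.3%. The border list has the longest bar to the right, 24 of 33, and the multiciliated cell list the longest to the left, 36 of 54.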

How the data were processed

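Per the labels' protocols, poly(A) RNA of cultured caps was made into directional libraries. The submitters' processing notes name fastp 0.23.2, STAR 2.6.0 and HTSeq 1.99.2, with no role for each. No source used here states the build, annotation or strand setting. The authors deposited raw counts per gene, 1 column per library; 5 summary lines that name no gene (reads in no gene 10.2 to 12.8%, ambiguous 0.2 to 0.51%, not unique 10.3 to 12.2%) were removed. The lamprey and stage 17 libraries were not in the fit.

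The 12 libraries were fitted together in edgeR 4.0.16 (R 4.3.3; TMM factors 0.734 to 1.322, filterByExpr by group, robust quasi-likelihood, two-sided), with group and library letter as terms, 6 residual degrees of freedom, and Benjamini-Hochberg adjustment over all genes; the threshold was 0.05. Each SE was derived from the log2 fold change and the F statistic and is only nominal for groups with few counts, for which counts and floors (3 counts over the group) are given. Floors cover counting error only.

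Columns name their library by letters a to c, which are in no label. Same-lettered libraries deviated together from their group means. Correlations were 0.811 to 0.839 at stage 9, 0.357 to 0.561 at stage 13 (6 pairs within a stage) and 0.226 to 0.399 across stages (12 pairs). Different letters gave -0.473 to -0.054, values that centring on group means makes negative on average. In 36 of 36 comparisons a library correlated best with its own letter. The letter, a block by the definition of the comparison, was kept as 1 block shared by both stages. Such a block may leave in the error the part of the pairing that is particular to a stage. Counts with a block within stage are given at the end. Clutches are not stated, so p-values measure only the spread between these libraries, possibly a technical one.

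A change was called gained, lost, reversed, strengthened or weakened from the calls of the effects at both stages. Named genes were the called ones of lowest p per class (up to 6 gained and 4 of each other class in each direction) with a symbol and a mean of at least 10 CPM in a group, the 2 of lowest p per direction of each of 24 gene lists, and members, called or not, of the crest, shared regulator, early dorsal and BMP lists; other list members are named without values. The members and lists were chosen with earlier results of these data known. The fit was tested on simulated counts without a letter effect or a difference between stages, with the spread taken from the fitted trend and not from each gene. Changes were placed only in genes above a minimum mean level, so the recovery does not carry over to genes with few counts. The fit recovered 20 of 100 simulated 2-fold changes and 93 of 100 4-fold changes. Beside these recovered changes it made 9 false calls, among 22212 genes. A change that did not pass therefore need not be absent. Alternatives were no block, a block within stage, all 18 frog libraries, library totals, size factors and Wald test of DESeq2 1.42.0, other filters, stricter class rules and each library left out. Some genes that the naming rule selects are not reported here.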

Additional observations from a re-analysis of the deposited data

Results flagged for a closer look

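The change between stages is itself a test that the response of the caps differs between stages 9 and 13, so each called gene of the report differed in this sense, 2682 positively and 3282 negatively. The sharpest form is an effect called at both stages with opposite sign. It was met, among genes with a symbol and a mean of at least 10 CPM, by fgfr4.L (change 3.93), msx1.L (4.48) and tfap2a.L (2.53), which went from lower to higher in induced caps, and by clptm1.L (-1.81), cpne3.L (-3.22) and rasal1.L (-6.53), which went from higher to lower. Their stage 9 calls depended on single libraries, least so for tfap2a.L.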

How the results depend on the processing

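No gene called in the change of the induction effect had the opposite sign in any of the alternatives it was tested in (0 of 5964). The counts moved more. Without the replicate block 1787 changes were positive, stage 9 calls were 31 higher and 8 lower, and the classes held 7 lost, 5 reversed, 7 strengthened and 0 weakened genes. With the block of letter within stage they were 4380 positive, 174 and 32 at stage 9, 4166 gained higher, 28 lost, 46 reversed, 53 strengthened and 13 weakened. DESeq2's Wald test gave 167 and 37 calls at stage 9 and 35 lost, 41 reversed, 47 strengthened and 10 weakened genes. All 18 libraries gave 20 reversed with the block and 3 weakened without it. Reversed genes were 17 with no filter, 6 at 5 CPM or more in 3 libraries and 6 with more than 3 counts in each group; this last filter, chosen after seeing the data, also gave 34 higher at stage 9, 9 strengthened and 3 weakened. An adjusted p under 0.01 left 1347 gained higher, 1874 gained lower, 9 strengthened and 2 weakened, and asking for a called effect of at least 2-fold at stage 13 and under 1.5-fold at stage 9 left 1526 gained higher. With 1 library left out, positive changes ran from 1705 to 2551, negative from 2522 to 3283, stage 9 calls from 23 to 120 higher and 5 to 42 lower, stage 13 calls from 3774 to 5021 and 4454 to 5562, gained genes from 1668 to 2481 and 2480 to 3184, lost 6 to 33, reversed 1 to 28, strengthened 7 to 28, weakened 1 to 8, and list members from 138 to 180 positive and 107 to 156 negative. The cause of these shifts was not tested. Genes with an empty control group at both stages, such as nodal3.1.L, gave edgeR little to test (adjusted p = 1, against 0.01 by DESeq2).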
